A study of Mus musculus with 9 samples.

Results

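The genes of the secretory pathway of the endoplasmic reticulum (ER) were followed in sorted B cells of young and aged mice. They were taken as a list of 42 gene symbols out of the 24346 that each of the 9 RNA-seq libraries holds. The genes were listed by name, but with earlier results of these data known. Averaged over the 9 libraries, 41 of them reached 1 FPKM and were tested together with all 10375 genes that did so, and Ern1 alone fell below. FPKM counts fragments relative to transcript length and to the mapped reads of a library, so that levels can be set side by side between genes. The list holds 9 chaperones and co-chaperones around BiP and GRP94, 2 lectin chaperones, 5 disulfide isomerases, 8 genes of ER-associated degradation, 7 of the translocon and the TRAP complex, 5 of signal peptidase, 2 of antibody assembly and 4 stress sensors and transcription factors.

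All cells were splenic B cells of wild-type C57BL6 mice, with no transgene or deletion in any group and no treatment stated. FO B (Young) are follicular (FO) B cells of mice 8 weeks of age, FO B (Aged) are the same cells at 50 weeks, and ABCs (Aged) are age-associated B cells at 50 weeks, with 3 libraries per group. Both kinds of cell were sorted as B220hi CD43- CD21lo, the FO B cells as CD23+ and the ABCs as CD23- CD11b+ CD11c+. No ABCs of young mice were measured, so that ABCs were compared with FO B cells within aged mice and age was compared within FO B cells. The labels only number the samples, whereas the study describes those of a group as coming from separate mice. Which libraries of the aged groups came from one mouse is not given, and p-values measure the spread between these libraries.

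Proteins that leave the cell or sit in its membranes enter the ER through the Sec61 translocon, lose their signal peptide to signal peptidase and fold with the help of BiP, GRP94, calnexin, calreticulin and the disulfide isomerases. Chains that fail to fold are drawn back to the cytosol and degraded. When unfolded chains build up, the sensors IRE1, PERK and ATF6 raise the transcription of this machinery, and B cells that become antibody-secreting plasma cells enlarge it.

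The libraries had about 7390000 to 8990000 mapped reads each, as estimated from the FPKM steps of 522 genes. In log2(FPKM + 1) over the 10375 genes, replicates 1 and 2 of the ABCs correlated at r = 0.9799, whereas replicate 3 correlated with them at 0.9639 and 0.9584. The FO B replicates of each age correlated at 0.973 to 0.9764. The sort showed in the libraries, with Fcer2a (CD23) lower and Itgax (CD11c) higher in ABCs than in FO B (Aged), at log2 fold changes of -7.51 and 5.53. Spn, which encodes the CD43 that both gates excluded, went against the gate, at 62.6, 54.1 and 86.7 FPKM in ABCs, 2.75, 3.09 and 3.32 in FO B (Aged) and 4.96, 4.71 and 4.99 in FO B (Young). It was called higher in ABCs (log2 fold change 4.06, FDR 2.94e-05), and its part in the results below was not tested. The summed FPKM of 6 B lineage markers was 6345 to 8199 in ABCs, with 7461 to 7829 for FO B (Aged), a sum made up mostly of Cd79a and Cd79b. Of the 6, Cd22 was called higher in ABCs (log2 fold change 1.06) and Pax5 (-0.52) and Ebf1 (-0.74) lower, and 4 had no ABC library as high as the lowest of FO B (Aged), against 26.6% of all genes. The 8 T cell markers summed to at most 2.09 FPKM in any library.

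The promoters of several members carry short sequences known as ER stress elements, to which ATF6, XBP1 and NF-Y bind. Windows from 250 bases before to 50 bases after the start site, taken from RefSeq on GRCm38.p6, were at hand for 33 of the 42 members. The windows were searched on both strands for the ER stress element ERSE, the letters CCAAT and CCACG with any 9 bases between them. It was found in 8 of the 33 members (24.2%) and in 0.137% of the 27025 genes with a window. The 8 were Hspa5, Hsp90b1, Dnajc3, Creld2, Calr, Canx, Pdia6 and Derl3, and Hsp90b1 held it 2 times. The shorter ERSE-II, ATTGG and CCACG with 1 base between them, was in Dnajb11 and Herpud1 and in 0.0444% of all genes. The XBP1 element UPRE, TGACGTGG, was in Txndc5 and in 0.714% of all genes. No member held more than one kind of element, and a match describes these letters only. The windows of Hyou1, Manf, Derl1, Sec61a1, Ssr2, Spcs3, Sec11c, Mzb1 and Atf6 were not analysed here. The stretches of Dnajc3, Pdia6 and Dnajb11 are not shown. Those below are shown because the genes that carry them differed in whether they were called between ABCs and FO B (Aged), as described further on. Each is written 5′ to 3′ on the strand of its gene, and capitals mark the fixed letters of the element, which read CGTGG and ATTGG where it lies on the opposite strand.
Hspa5 ERSE, chr2:34772020-34772048, plus strand: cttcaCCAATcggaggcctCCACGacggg
Hsp90b1 ERSE far from the start, chr10:86705618-86705676, minus strand: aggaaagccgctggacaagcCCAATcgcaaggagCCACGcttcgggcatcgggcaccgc
Hsp90b1 ERSE near the start, chr10:86705513-86705571, minus strand: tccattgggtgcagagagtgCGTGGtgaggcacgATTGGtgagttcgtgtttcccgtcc
Creld2 ERSE, chr15:88819500-88819558, plus strand: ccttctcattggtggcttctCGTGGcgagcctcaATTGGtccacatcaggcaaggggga
Derl3 ERSE, chr10:75893222-75893280, plus strand: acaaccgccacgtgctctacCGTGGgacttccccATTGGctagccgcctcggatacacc
Calr ERSE, chr8:84847055-84847113, minus strand: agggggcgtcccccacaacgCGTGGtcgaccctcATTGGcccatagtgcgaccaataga
Canx ERSE, chr11:50325780-50325838, minus strand: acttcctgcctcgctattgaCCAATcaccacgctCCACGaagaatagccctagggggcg
Herpud1 ERSE-II, chr8:94386357-94386407, plus strand: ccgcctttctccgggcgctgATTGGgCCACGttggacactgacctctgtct
Txndc5 UPRE, chr13:38528034-38528063, minus strand: ggcctcgccgcTGACGTGGcgctagccgcc
The elements of Hspa5, Creld2 and Derl3 end 46, 107 and 137 bases before the RefSeq start site, those of Hsp90b1 193 and 88 bases, those of Calr and Canx 143 and 126 bases, and those of Herpud1 and Txndc5 41 and 130 bases. The stretch of Hspa5 lies inside the first exon of the gene in GENCODE M21, whose gene starts upstream of the RefSeq start used here. That of Txndc5 lies inside the annotated gene and inside an exon of the antisense gene Gm31834.

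In aged mice, ABCs had more RNA of much of the ER machinery than FO B cells. At a false discovery rate (FDR, Benjamini-Hochberg over all genes tested with limma) under 0.05, 24 of the 41 members were higher in ABCs, against a background of 18.7% of all genes tested. One member, Ddit3, was lower, against a background of 16.7%, and 16 were not called. The median log2 fold change of the members, on the log2(FPKM + 1) scale used for all fold changes here, was 0.35, and that of all genes tested was -0.02. Of the members, 7 were also above a log2 fold change of 1, against 6.44% of all genes. They were Derl3, Jchain, Txndc5, Mzb1, Atf6, Dnajb9 and Edem1. Without ABC replicate 3, the library that correlated least with its group, 23 members were higher, and the share of all genes in that fit is not given. In bulk samples such as these, fewer cells of a type and less RNA per cell cannot be told apart.

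The summed level of the 42 members was 7028 ± 514 FPKM (SD, n = 3) in ABCs, 4687 ± 166 in FO B (Aged) and 4348 ± 250 in FO B (Young). Mzb1, Txndc5 and Sec11c made up much of the difference, and without them the sums were 4829.6, 3856 and 3510.0 FPKM. In FO B (Aged) the highest mean levels were those of Hspa5 (465 FPKM), Sec11c (319) and Mzb1 (316). In ABCs the order was Mzb1 (944), Txndc5 (650), Sec11c (605) and Hspa5 (513). The libraries of neighbours in the ABC order overlapped, as did those of Sec11c and Mzb1 in FO B (Aged).

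**Figure D1:**
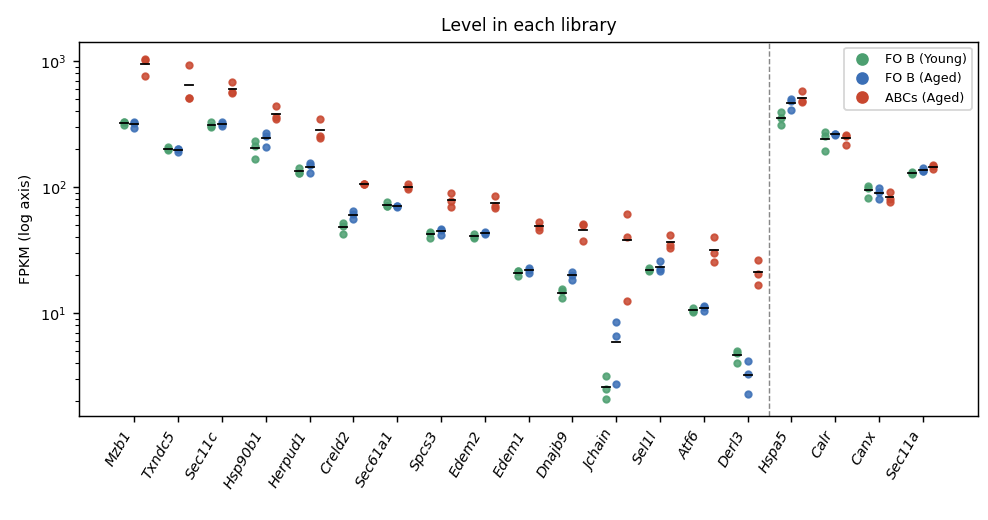
Level of selected ER genes in each of the 9 libraries, in FPKM on a log axis, with a dot per library, a black bar at the mean of each group of 3 and the groups by color. Left of the dashed line are the members called between ABCs (Aged) and FO B (Aged) with a log2 fold change of at least 0.5, in order of their mean in ABCs, where the ABC dots lie above all FO B (Aged) dots, and right of it are Hspa5, Calr, Canx and Sec11a, none of them called in that comparison.

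Among the chaperones around BiP and GRP94, 3 of 9 were higher in ABCs than in FO B (Aged), against 18.7% of all genes. Hspa5 encodes BiP, the Hsp70 of the ER lumen. Its level was 474, 483 and 583 FPKM in the ABC libraries, 502, 407 and 486 in FO B (Aged) and 395, 355 and 312 in FO B (Young). The ABC and FO B (Aged) libraries overlapped, and the log2 fold change between them was 0.14 ± 0.11 (SE, FDR 0.367). Hsp90b1 encodes GRP94, the Hsp90 of the ER and a folding partner of Toll-like receptors and integrins. It was at 359, 350.2 and 438 FPKM in ABCs, 269, 207 and 256 in FO B (Aged) and 232, 212 and 169 in FO B (Young). The ABC libraries lay above all others, with a log2 fold change of 0.65 ± 0.13 (FDR 0.00917) over FO B (Aged). The ratio of Hsp90b1 to Hspa5 was 0.744 ± 0.017 (SD, n = 3) in ABCs and 0.524 ± 0.014 in FO B (Aged), with no overlap. The exact two-sided permutation p was 0.1, the smallest that 3 against 3 libraries allow. In FO B (Young) the ratio was 0.575 ± 0.030, and the FO B (Aged) libraries also all lay below the young ones.

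Dnajb9 encodes ERdj4, a co-chaperone that helps BiP to hold the sensor IRE1 inactive. It was at 37.2, 50.01 and 50.6 FPKM in ABCs, 18.4, 20.05 and 21.4 in FO B (Aged) and 15.4, 14.9 and 13.1 in FO B (Young). The groups did not overlap, and the log2 fold change of ABCs over FO B (Aged) was 1.15 ± 0.13 (FDR 0.00112). Creld2, an ER protein induced by stress, was at 105, 106 and 105 FPKM in ABCs against 64.4, 55.5 and 61.8 in FO B (Aged) and 52.3, 49.6 and 42.3 in FO B (Young). The ABC libraries were almost equal to each other and far from the rest, with a log2 fold change of 0.80 ± 0.07 (FDR 0.000397). The other 6 members of the group were not called. Their log2 fold changes ran from -0.04 for Hyou1, a large Hsp70-like chaperone, to 0.33 for Sdf2l1, a partner of the ER J proteins, with 0.13 for Dnajc3, 0.18 for Dnajb11 and 0.31 for Manf (FDR 0.0744).

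The lectin chaperones, which hold newly made glycoproteins by their sugars, did not pass the test. Calreticulin (Calr) was at 217 to 261 FPKM in ABCs and 259.7 to 266 in FO B (Aged), with a log2 fold change of -0.11 ± 0.08 (FDR 0.312). Calnexin (Canx) was at 76.7 to 92.3 FPKM and 80.6 to 99.5, with a log2 fold change of -0.12 ± 0.10 (FDR 0.403). For both genes the libraries of the groups overlapped.

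Of the 5 disulfide isomerases, which form and reshuffle disulfide bonds, Txndc5 and P4hb were higher in ABCs, against 18.7% of all genes. Txndc5, also known as ERp46, was at 510.1, 507 and 932 FPKM in ABCs, 189.8, 199.7 and 199.6 in FO B (Aged) and 202, 210.4 and 196 in FO B (Young). The ABC libraries were all above the others and replicate 3 stood far above replicates 1 and 2. Its log2 fold change over FO B (Aged) was 1.66 ± 0.23 (FDR 0.00228) and 1.37 without ABC replicate 3, where it stayed called. P4hb, the archetypal isomerase PDI, was at 139.96, 133 and 151 FPKM in ABCs against 109, 97.5 and 104 in FO B (Aged). Its libraries did not overlap, with a smaller log2 fold change of 0.45 ± 0.07 (FDR 0.00412). Pdia3, the partner of calnexin and calreticulin, had a log2 fold change of 0.25 (FDR 0.114), Pdia4 one of 0.18 (FDR 0.0758) and Pdia6 one of -0.02 (FDR 0.873), so that these 3 were not called.

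The genes of ER-associated degradation were higher in ABCs in 6 of 8 cases, against 18.7% of all genes, with a median log2 fold change of 0.69. Derl3 is a derlin, one of 3 membrane proteins through which failed chains leave the ER, and it is known from secretory cells. It was at 16.8, 20.5 and 26.3 FPKM in ABCs, 2.30, 4.14 and 3.30 in FO B (Aged) and 5.01, 4.86 and 4.03 in FO B (Young). These values rest on 155, 209 and 244 reads in ABCs and 21, 46 and 33 in FO B (Aged). The ABC libraries all lay above the FO B libraries of both ages, and the log2 fold change over FO B (Aged) was 2.39 ± 0.21 (FDR 0.00044). Of the other derlins, Derl1 was higher with a log2 fold change of 0.39 (FDR 0.00344) and Derl2 had one of 0.23 (FDR 0.0817). Derl3 made up 17.3% ± 2.9 (SD, n = 3) of the summed derlin FPKM in ABCs and 3.98% ± 1.19 in FO B (Aged), with no overlap (exact p = 0.1).

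Edem1 and Edem2 trim mannose from misfolded glycoproteins and so mark them for disposal. Edem1 was at 48.1, 45.9 and 53.3 FPKM in ABCs, 22.6, 22.02 and 20.8 in FO B (Aged) and 21.4, 19.6 and 21.8 in FO B (Young). The ABC libraries lay apart from and above those of FO B cells, with a log2 fold change of 1.13 ± 0.08 (FDR 0.000186), the lowest FDR of the members. Edem2 was at 71.1, 67.8 and 85.1 FPKM in ABCs and 42.4, 43.6 and 44.4 in FO B (Aged), without overlap and with a log2 fold change of 0.76 ± 0.09 (FDR 0.00141). Edem3, of the same family, was at 4.58 to 4.80 FPKM in ABCs and 4.24 to 5.39 in FO B (Aged) and was not called, with a log2 fold change of -0.02 (FDR 0.888).

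Herpud1 links the derlins to the ubiquitin ligase of this system. It was at 247, 254 and 347 FPKM in ABCs, 156, 149 and 129.995 in FO B (Aged) and 130.5, 143 and 131 in FO B (Young). The ABC libraries lay above all others, with a log2 fold change of 0.95 ± 0.14 (FDR 0.00324). Sel1l, the adaptor of that ligase, was at 34.7, 33.1 and 41.8 FPKM in ABCs and 22.4, 21.6 and 25.8 in FO B (Aged). It did not overlap either and had a log2 fold change of 0.63 ± 0.11 (FDR 0.00649).

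All 7 genes of the translocon and of TRAP, the complex that assists it, were above FO B (Aged) in every ABC library, against 25.7% of all genes. Of these, 6 were called higher, against 18.7% of all genes. The changes were small, with a median log2 fold change of 0.35. Sec61a1, the pore subunit, was at 99.97, 96.5 and 107 FPKM in ABCs against 71.5, 70.3 and 70.4 in FO B (Aged) and 71.2, 70.8 and 76.4 in FO B (Young). The FO B libraries of both ages overlapped and those of the ABCs stood above them, at a log2 fold change of 0.51 ± 0.06 (FDR 0.00119). The other called members were Ssr2 (0.39), Ssr3 (0.35), Sec61g (0.35), Sec61b (0.35) and Ssr4 (0.22), at FDR 0.00289 to 0.0398. The call of Sec61g was lost without any single library except FO B (Aged) replicate 3, with an FDR of up to 0.112. That of Ssr4 was lost without ABC replicate 1 or any FO B (Aged) library, with an FDR of up to 0.0774. Ssr1 was at 22.4, 22.8 and 38.0 FPKM in ABCs and 18.8 to 19.6 in FO B (Aged). Replicate 3 of the ABCs was far above the others, and the log2 fold change of 0.47 ± 0.20 was not called (FDR 0.107).

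Signal peptidase has a catalytic subunit in alternative forms, Sec11a and Sec11c, besides the Spcs subunits. Sec11c was at 571, 563 and 680.4 FPKM in ABCs, 318, 307 and 332 in FO B (Aged) and 329, 299 and 307 in FO B (Young). The ABC libraries lay above all others, with a log2 fold change of 0.92 ± 0.09 (FDR 0.00055). Sec11a was at 147, 139 and 150.03 FPKM in ABCs and 134, 136 and 142 in FO B (Aged), which overlapped, with a log2 fold change of 0.08 ± 0.06 (FDR 0.311). The ratio of Sec11c to Sec11a was 4.15 ± 0.34 (SD, n = 3) in ABCs, 2.32 ± 0.06 in FO B (Aged) and 2.41 ± 0.07 in FO B (Young), with no overlap between ABCs and FO B (Aged) (exact p = 0.1). Spcs3 was at 78.4, 69.6 and 90.7 FPKM in ABCs and 46.8, 45.4 and 41.6 in FO B (Aged), without overlap. Its log2 fold change was 0.81 ± 0.11 (FDR 0.00175), whereas Spcs1 and Spcs2 were higher by 0.37 and 0.23 (FDR 0.019 and 0.0128). The call of Spcs1 was lost without FO B (Aged) replicate 2 or 3 (FDR 0.0589 and 0.0698).

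**Figure D2:**
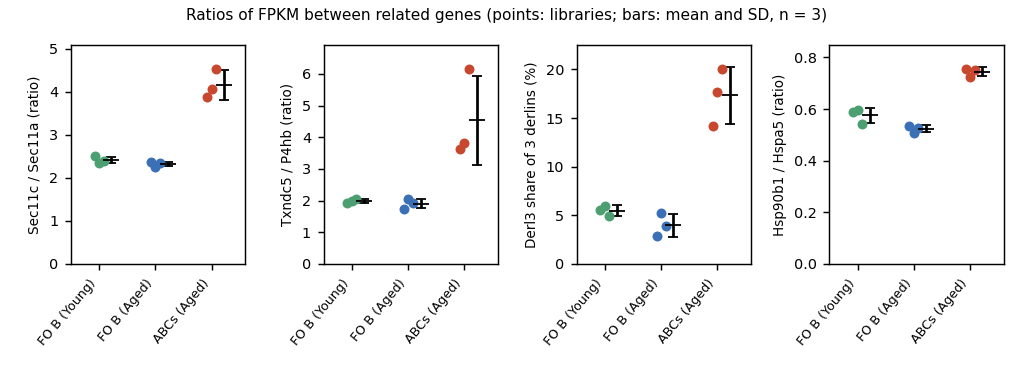
Ratios of FPKM between related ER genes in each library, for Sec11c over Sec11a, Txndc5 over P4hb, Derl3 as a percentage of the 3 derlins and Hsp90b1 over Hspa5, with dots for libraries and bars for the mean and SD of 3. The ABC libraries lie above all FO B libraries in each of the 4 panels, and Txndc5 over P4hb was 4.54 ± 1.41 in ABCs against 1.90 ± 0.15 in FO B (Aged).

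Both genes of antibody assembly were higher in ABCs, against 18.7% of all genes. Mzb1 is a B cell partner of GRP94 that supports the folding of immunoglobulin. It was at 1049.95, 1015 and 769 FPKM in ABCs, 297, 327 and 323 in FO B (Aged) and 311, 330.3 and 329 in FO B (Young). The ABC libraries did not overlap with the others, with a log2 fold change of 1.56 ± 0.13 over FO B (Aged) (FDR 0.000298). In GENCODE M21, 57.2% of its exon bases are also exon bases of SPATA24 on the same strand, so that reads there cannot be split between these genes. The libraries do not mark strand, so the same holds for exons shared with genes on the other strand. Among members called higher, such bases were 16.3% in Spcs1 (Glt8d1), 12.8% in Ssr2 (Gm10704) and 10.3% in Hsp90b1 (1810014B01Rik). Jchain, the chain that joins IgM and IgA into polymers, was at 61.6, 40.5 and 12.5 FPKM in ABCs, 2.73, 6.63 and 8.44 in FO B (Aged) and 2.08, 3.19 and 2.51 in FO B (Young). The ABC libraries, at 956, 695 and 195 reads, differed widely among themselves but were all above FO B (Aged). Its log2 fold change was 2.34 ± 0.60 (FDR 0.0239), and the call was lost without FO B (Aged) replicate 1 or 2 or ABC replicate 1 or 2, with an FDR of up to 0.0819. Without ABC replicate 3 the log2 fold change was 2.98 (FDR 0.00293). The immunoglobulin genes themselves were not analysed here.

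The stress sensors and transcription factors went different ways. Atf6 encodes the sensor that is cut in the Golgi to release a transcription factor, a step that RNA levels do not show. It was at 25.7, 29.9 and 40.02 FPKM in ABCs, 10.5, 11.3 and 11.2 in FO B (Aged) and 10.4, 10.2 and 11.1 in FO B (Young). The ABC libraries lay far above the FO B libraries of both ages, with a log2 fold change of 1.43 ± 0.16 (FDR 0.000967). Ddit3 (CHOP), a factor tied to cell death under stress, was at 34.8, 37.9 and 32.5 FPKM in ABCs, 41.7, 41.2 and 46.8 in FO B (Aged) and 44.7, 40.4 and 38.8 in FO B (Young). It was the only member called lower, at a log2 fold change of -0.29 ± 0.09 (FDR 0.0363) and with no overlap. That call held without ABC replicate 2 and was lost without any other single library, with an FDR of up to 0.114.

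Atf4, the factor translated when PERK and related kinases are active, was at 108, 126 and 112 FPKM in ABCs and 124, 132 and 132 in FO B (Aged), which overlapped (log2 fold change -0.16 ± 0.07, FDR 0.125). Ern1, which encodes IRE1, was at 1.13, 1.40 and 1.48 FPKM in ABCs, 0.554, 0.644 and 0.358 in FO B (Aged) and 0.955, 0.755 and 0.751 in FO B (Young). Its ABC libraries were all above the FO B libraries, but at 129, 53 and 82 reads per group it was under the minimum level and was not tested. Xbp1, the target of IRE1 splicing and no member of the list, was at 133, 126 and 142 FPKM in ABCs and 122, 102 and 119 in FO B (Aged), without overlap but not called (log2 fold change 0.23 ± 0.09, FDR 0.0853). Gene-level FPKM does not separate its spliced form.

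**Figure D3:**
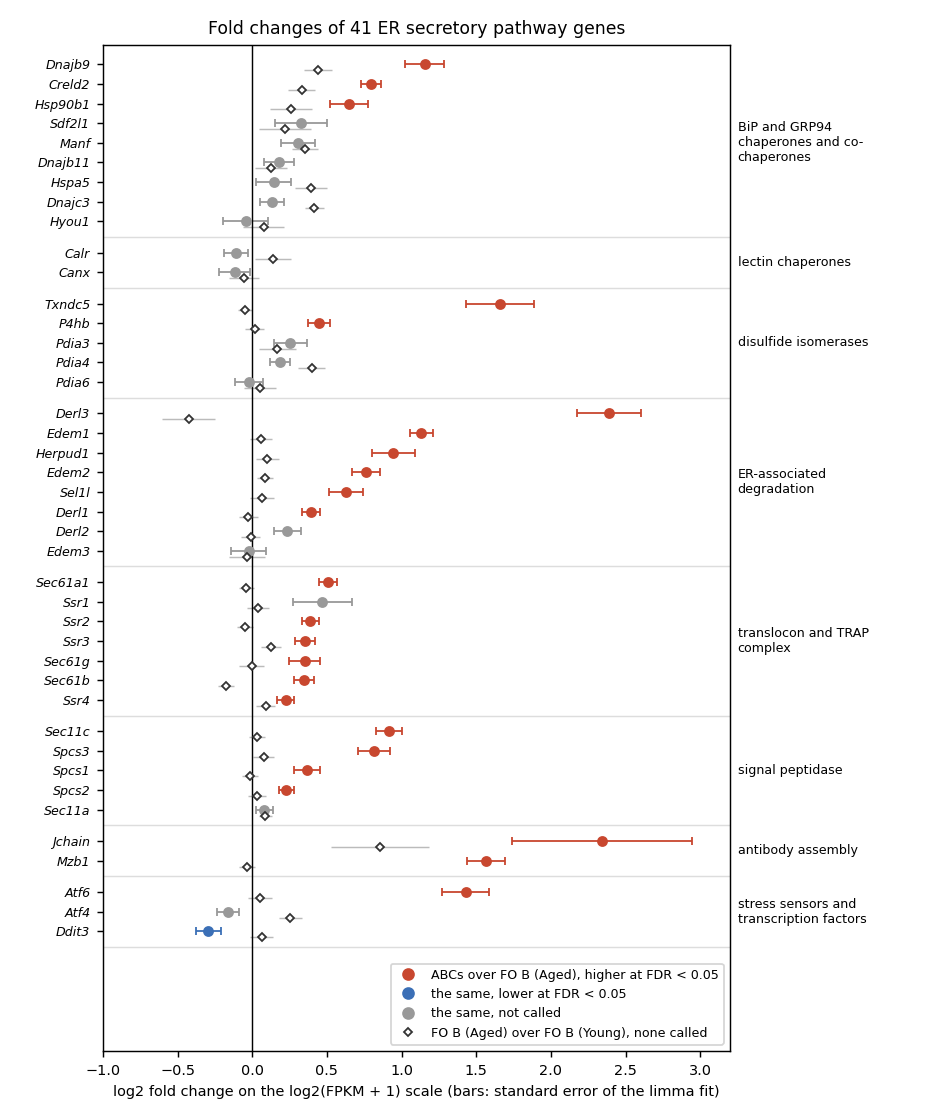
Log2 fold changes on the log2(FPKM + 1) scale of the 41 members tested, by role, with standard errors of the limma fit. Circles compare ABCs (Aged) with FO B (Aged), of which 24 are higher (red), 1 is lower (blue) and 16 are not called (gray), and open diamonds compare FO B (Aged) with FO B (Young), of which none is called.

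The genes with an ERSE, printed above in part, were found on both sides of the call. Of the 8, Hsp90b1, Creld2 and Derl3 were higher in ABCs than in FO B (Aged), whereas Hspa5, Dnajc3, Calr, Canx and Pdia6 were not called. Of the members tested 24 of 41 were higher, and of all genes 18.7%. With 8 genes, whether an ERSE goes with the call was not tested. Herpud1 with its ERSE-II and Txndc5 with its UPRE were higher, and Dnajb11, also with an ERSE-II, was not called. Among the 8 genes with an ERSE, the log2 fold change ran from -0.12 for Canx to 2.39 for Derl3.

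Of other genes of the pathway in 7 lists, 102 had enough RNA to be tested, and 37 were higher and 3 lower in ABCs than in FO B (Aged), against the 18.7% and 16.7% of all genes given above. Oxidative folding had 9 higher of 19, with Prdx4 (log2 fold change 1.28), a peroxiredoxin of the ER, Erp44 (0.97), which retrieves unfinished IgM, and Txndc12 (0.62), and Ero1lb, an oxidase of PDI, was lower (-0.96). Other degradation genes had 7 higher of 20, with the ubiquitin-conjugating enzyme Ube2j1 (0.76), the lectin Os9 (0.69) and Vimp (0.40), and Fam8a1 was lower (-0.69). Glycan trimming and quality control had 4 higher of 7, with the cargo receptors Lman2 (0.72) and Lman1 (0.61) and the glucosidase subunit Prkcsh (0.70), whereas the glucosidase Mogs was lower (-0.88). Among COPII and retrieval genes 6 of 17 were higher, with the coat subunit Sec24d (2.14), the GTPase Sar1b (0.38) and the KDEL receptor Kdelr1 (0.36). The oligosaccharyltransferase had 5 higher of 12, with Rpn2 (0.43), Stt3a (0.39) and Rpn1 (0.30). Of 13 other regulators of the unfolded protein response 4 were higher, among them Wfs1 (1.31), Creb3l2 (1.08) and Asns (0.86). Signal recognition and translocation had 2 higher of 14, Tram2 (1.15) and Tram1 (0.44), a share near that of all genes. The FDR of these named genes was 0.000183 to 0.0375. Leaving out single libraries ended the calls of Mogs, Fam8a1, Lman2, Lman1, Sar1b, Kdelr1 and Rpn1, with an FDR of up to 0.118, 0.0616, 0.106, 0.0626, 0.0828, 0.11 and 0.0533.

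Other sets of genes moved with the ABCs, and their part in the results above was not tested. The 6 plasma cell markers had sums of 180.4 to 271 FPKM in ABCs. The sums were 123 to 144 in the aged FO B cells and 108 to 132 in the young, and Xbp1 was the most abundant of them in each group. Prdm1 (log2 fold change 1.97), Sdc1 (1.82) and Fam46c (4.63) were higher in ABCs, Irf4 had a log2 fold change of -0.18 and was not called, and Tnfrsf17 was under the minimum level in all groups. Sdc1 (CD138) was at 9.54, 8.37 and 29.5 FPKM in the ABC libraries. Replicate 3, with the highest Sdc1, had the lowest Jchain and Mzb1 of the ABCs and the highest Txndc5. Of the other plasma cell markers, it had the highest Fam46c, Irf4 and Xbp1 and the lowest Prdm1. Of the B lineage markers, it had the lowest Cd79a, Cd79b, Ms4a1, Pax5 and Ebf1 and the highest Cd22. The 9 immediate-early genes had sums of 1520.2 to 2509 FPKM in ABCs and of 817 to 1012 in FO B (Aged). Of them, 8 of 9 were called higher, as were 4 of 8 cell cycle genes, against 18.7% of all genes. The 11 macrophage markers summed to 199 to 239.7 FPKM in ABCs and 11.4 to 18.6 in FO B (Aged). Adgre1 made up most of the ABC sums, at 174, 222 and 199 FPKM, and 6 of the 11 were under a mean of 1 FPKM in ABCs. Of the 5 macrophage markers tested, 2 were called higher and 3 were not called.

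With age alone, FO B cells showed no member past the test. In FO B (Aged) against FO B (Young), 0 of 41 members were called at FDR under 0.05, where 0.280% of all genes were called higher and 0.0964% lower. At an unadjusted p under 0.05, 8 members were higher, against 7.06% of all genes, and 2 were lower, against 5.85%. In 9 tested members every aged library was above every young one, against 9.66% of all genes, and in 1 (Sec61b) every aged library was below, against 8.86%. The 9 were Hspa5, Dnajb9, Dnajc3, Manf, Creld2, Pdia4, Ssr3, Sec11a and Atf4, of which 6 are chaperones or isomerases.

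Hspa5, with the library values given above, had a log2 fold change of 0.39 ± 0.11 (FDR 0.209) from young to aged FO B cells. Dnajc3 encodes p58IPK, an inhibitor of PERK and co-chaperone of BiP, and had the lowest FDR of the members. It was at 24.2, 23.1 and 24.4 FPKM in FO B (Aged), 18.1, 17.6 and 17.3 in FO B (Young) and 26.8, 24.045 and 28.1 in ABCs. The young libraries lay apart from the aged ones of both cell types, with a log2 fold change of 0.42 ± 0.06 between the FO B groups (FDR 0.0601). Its FDR was 0.0494 when genes were filtered on the 6 libraries compared. Manf, a secreted factor released under ER stress, was at 53.4, 43.6 and 49.9 FPKM in FO B (Aged) and 39.0, 39.9 and 35.1 in FO B (Young), without overlap (0.35 ± 0.09, FDR 0.18). Pdia4 was at 267, 239 and 243 FPKM and 196, 207 and 167, also without overlap (0.40 ± 0.09, FDR 0.158). Dnajb9, Creld2 and Atf4 had log2 fold changes of 0.44, 0.33 and 0.25 (FDR 0.145, 0.214 and 0.252). Jchain had the largest of the members, at 0.86 ± 0.33 (FDR 0.337), but its young and aged libraries overlapped. The immediate-early genes, at 817 to 1012 FPKM in aged and 611 to 672 in young FO B cells, moved in the same direction. In 6 of 9 every aged library was above every young one, against 9.66% of all genes. Of the 9, 1 was called higher, against 0.280% of all genes. The part of the immediate-early genes in these age differences was not tested.

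Mzb1, Sec11c, Edem1, Atf6 and Txndc5, which were called between ABCs and FO B (Aged), each had overlapping libraries in young and aged FO B cells. Derl3 was at 4.03 to 5.01 FPKM in the young and 2.30 to 4.14 in the aged FO B cells and overlapped as well. With Sec61b, it was among the 2 members lower in FO B (Aged) at an unadjusted p under 0.05 (log2 fold change -0.43 ± 0.18, FDR 0.372).

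Against FO B (Young), 31 members were higher in ABCs at FDR under 0.05, against a background of 20.9% of all genes, and 0 were lower, against 19.3%. At an unadjusted p under 0.05, 34 were higher, against 24.9% of all genes, and 1, Ddit3, was lower, against 24.5%. This comparison shares its ABC libraries with the first one and its young libraries with the second. Here Hspa5 was higher, with a log2 fold change of 0.54 ± 0.11 (FDR 0.0102), as were Dnajc3 (0.55), Manf (0.66), Pdia4 (0.58), Pdia3 (0.42), Sdf2l1 (0.55) and Sec11a (0.17), none of which was called against FO B (Aged). The calls of Sdf2l1 and Pdia3 were lost in 12 and 6 of 16 alternative fits, and those of Sec11a and Sec61b (0.17) in 12 and 13. Sdf2l1 and Sec61b lost theirs without any single library, Sec11a without any but ABC replicate 2, and Pdia3 without FO B (Young) replicate 1 or 3 or ABC replicate 3. The largest log2 fold changes were those of Jchain (3.197), Derl3 (1.96), Txndc5 (1.61), Dnajb9 (1.59), Mzb1 (1.53) and Atf6 (1.48). Calr, Canx, Pdia6, Hyou1, Dnajb11, Edem3, Derl2, Ssr1 and Atf4 were not called in any of the 3 comparisons.

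The chaperones and isomerases moved together between libraries of one group. In FO B (Young), replicate 3 was the lowest library for all 16 of the chaperones, lectins and isomerases, where it was the lowest for 34.9% of all genes. In FO B (Aged), replicate 2 was the lowest for 14 of the 16, against 35.0% of all genes, and replicate 1 was the highest for 13. Among ABCs, replicate 3 was the highest for 14 of the 16 and for 30 of all 41 members, against 38.9% of all genes. The members are thus not independent of each other, and a count of members is not a count of separate results.

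**Figure D4:**
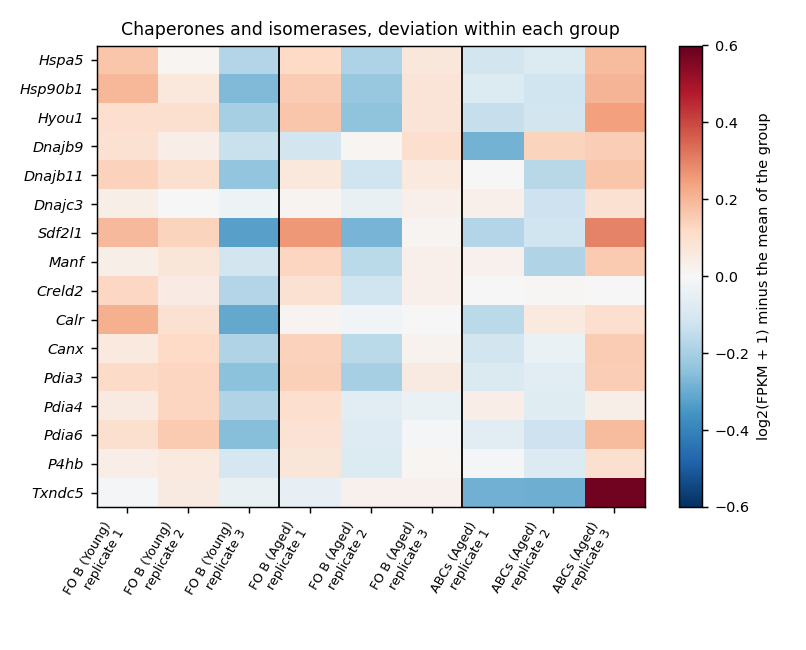
Deviation of 16 chaperones, lectins and isomerases (rows) from the mean of their group in log2(FPKM + 1), for each library (columns), with red above and blue below the group mean. FO B (Young) replicate 3 is blue in all 16 rows, FO B (Aged) replicate 2 is the lowest of its group in 14, and ABC replicate 3 is the highest of its group in 14.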

How the data were processed

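RNA-seq of 9 libraries of sorted splenic B cells was analysed, 3 per group as given by the sample titles. According to the methods and labels, the authors made full-length cDNA with a SMART-Seq HT kit, which does not mark strand, and Nextera libraries, and mapped 101-base reads to mm10. The submitters' processing notes name TopHat2 2.1.1, Bowtie2 2.2.8, SAMtools 0.1.18 and Cuffdiff 2.2.1. The versions named in the methods differ, and the gene annotation is not given in the sources used here. The deposited values are FPKM per gene symbol, with no counts, and no scaling between libraries beyond FPKM is described.

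From these, log2(FPKM + 1) was modelled in R 4.3.3 by limma 3.58.1 (lmFit, eBayes with a trend), using the 6 libraries of each comparison and the genes that averaged 1 FPKM or more in the 9 libraries. Genes were called at a Benjamini-Hochberg FDR under 0.05, with no fold threshold. A pseudocount of 1 understates the changes of low genes. For ABCs against FO B (Aged), 6 ratios of genes within a library were compared by an exact two-sided permutation test, and each p was 0.1, also after adjustment. The members, roles, lists and tests were chosen with earlier results of these data known. Any member could be named, with library values for those called at an absolute log2 fold change of at least 0.5 and for a few set members, and up to 3 called genes per direction of each pathway list. Irf4, Prdm1, Sdc1, Fam46c and Tnfrsf17 are the rest of the plasma cell list, and other library values were added after they were seen.

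Whole reads behind low FPKM values were recovered from the size of 1 read, to a relative tolerance of 2e-05, for 20 members, and were used only to show depth, not in a test. Such counts cover counting error only. No replicate held a copy of the values of another, since 0 values above 0 were equal between them. Whether replicates came from the same pool of cells cannot be told from this. Promoter windows came from RefSeq on GRCm38.p6 and gene models from GENCODE M21. The fit was also tested on simulated data. Alternatives were other pseudocounts, filters, scalings and thresholds, all libraries in the fit, no trend, a replicate block and leaving out each library. Python 3.11.15, pandas 2.3.3, scipy 1.17.1 and matplotlib 3.10.9 were used. Immunoglobulin constant region genes, Hm13 and Ly6g were not analysed here. One gene of the B lineage list is not reported here.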

Additional observations from a re-analysis of the deposited data

How the results depend on the processing

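Of the 25 members called between ABCs and FO B (Aged), 20 were called in each of 16 alternative fits, and Sec61g, Ssr4, Spcs1, Jchain and Ddit3 were lost in some. The count of members higher in ABCs was 20 to 26 over these fits and 20 to 24 when single libraries were left out. It was 19 at FDR under 0.01 and 6 at FDR under 0.01 with a log2 fold change above 1. For the alternative fits and thresholds of this section, the share of all genes called is not given. These counts therefore cannot be set against a background. The count of lower members was 0 with no filter on low values, without the trend, with the replicate block and at both stricter thresholds, 2 with quantile normalization, and 0 to 2 when single libraries were left out. For FO B (Aged) over FO B (Young), 1 member was called higher when genes were filtered on the 6 libraries compared. For ABCs over FO B (Young), 25 of 31 members were called in every fit, with Sec61b lost in 13, Sdf2l1 and Sec11a in 12 each, Pdia3 in 6, Spcs2 in 4 and Spcs1 in 1, and 9 were higher at FDR under 0.01 with a log2 fold change above 1, and 1 was lower with TPM scaling. Of the other pathway genes named, Kdelr1 was lost in 6 fits, Mogs in 5, Lman2 and Sar1b in 4 each, Fam8a1 in 3 and Lman1 and Rpn1 in 1 each. The cause of these changes was not tested. The log2 fold changes of Hyou1 (-0.17 to 0.039), Pdia6 (-0.12 to 0.04) and Edem3 (-0.095 to 0.048) between ABCs and FO B (Aged) changed sign when single libraries were left out, and none of the 3 was called. Deviations of ABC and FO B (Aged) libraries correlated at 0.085, -0.019 and 0.108 for equal replicate numbers and at -0.108 to 0.059 for unequal ones. Such weak values cannot settle whether the numbers pair the libraries. With the replicate block 23 members were called, of which 22 were called without it, with Sec61g, Jchain and Ddit3 lost and Manf gained, and 27 instead of 31 were called between ABCs and FO B (Young). With 3 libraries per group and FPKM in place of counts, a member that was not called is not shown to be unchanged.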
